A study of Homo sapiens with 9 samples.

Results

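The sestrins SESN1, SESN2 and SESN3 and the forkhead factors FOXO1, FOXO3 and FOXO4 were followed in ZR-75-1, an established estrogen receptor-positive breast cancer line, after transfection of a miR-150-5p mimic. All 6 genes were measured, with 7 probesets, out of 14884 genes named on the array. The members were taken by gene symbol, and where a gene had more than 1 probeset its probeset was selected on the mean over all 9 arrays, the brightest being kept. That choice bore on FOXO3 alone, whose 2 probesets had mean log2 intensities of 5.76 and 4.55 over the 9 arrays, and the brighter one was kept. The set was put together knowing that SESN3 differs between these groups, so the values of SESN3 below describe the gene and its adjusted p-values are not independent evidence.

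The 9 arrays hold 3 groups of 3: cells given 50 nM of the miR-150-5p mimic, cells given 50 nM of a non-specific negative control RNA, and mock cells given the lipid reagent Lipofectamine RNAiMAX with no RNA. All cells were grown in RPMI-1640 with fetal bovine serum, received the lipid, and gave total RNA at 48 h. A microRNA mimic is a synthetic copy of the mature strand that lowers the messenger RNAs it pairs with. The model is a single cell line under transient transfection, and the labels do not say whether the triplicates were separate experiments, so p-values cover the spread among these cultures only, and that spread may be technical.

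Sestrins are stress-induced proteins that restrain mTORC1, the kinase complex that couples amino acid supply to growth. SESN1 and SESN2 bind GATOR2 and so keep the Rag GTPases from switching mTORC1 on, and SESN2 releases GATOR2 when it binds leucine. SESN1 and SESN2 are classical p53 targets, SESN2 is also induced by ATF4 and by NRF2, and SESN3 is best known as a target of FOXO1 and FOXO3. FOXO factors are transcription factors that AKT phosphorylates when insulin or growth factor signalling is active, after which 14-3-3 proteins hold them in the cytoplasm. Their activity is set largely by that modification, so a transcript level does not report it.

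RefSeq promoters (GRCh38.p14, 250 bases before to 50 after a transcription start) were at hand for all 6 genes, 11 in all because SESN1 has 3 and FOXO3 has 4. The promoters of SESN3, the sestrin whose level differed, of SESN2, its paralogue, and of FOXO4, which holds the only FOXO core motif among the 11, are shown 5′ to 3′ on the strand of the gene. Capitals mark a motif match.
SESN3 promoter, chr11:95232426-95232725, minus strand: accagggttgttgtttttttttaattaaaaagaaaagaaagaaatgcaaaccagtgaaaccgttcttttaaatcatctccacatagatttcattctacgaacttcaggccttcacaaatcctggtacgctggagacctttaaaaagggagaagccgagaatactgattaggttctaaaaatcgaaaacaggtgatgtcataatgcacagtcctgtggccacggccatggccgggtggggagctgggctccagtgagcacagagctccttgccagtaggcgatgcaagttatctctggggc
SESN2 promoter, chr1:28259268-28259567, plus strand: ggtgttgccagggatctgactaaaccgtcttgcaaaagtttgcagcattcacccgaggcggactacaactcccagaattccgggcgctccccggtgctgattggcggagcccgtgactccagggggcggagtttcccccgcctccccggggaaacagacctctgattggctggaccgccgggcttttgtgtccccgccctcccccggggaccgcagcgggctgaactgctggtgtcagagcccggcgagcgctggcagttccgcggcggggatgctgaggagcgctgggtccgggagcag
FOXO4 promoter, chrX:71095601-71095900, plus strand: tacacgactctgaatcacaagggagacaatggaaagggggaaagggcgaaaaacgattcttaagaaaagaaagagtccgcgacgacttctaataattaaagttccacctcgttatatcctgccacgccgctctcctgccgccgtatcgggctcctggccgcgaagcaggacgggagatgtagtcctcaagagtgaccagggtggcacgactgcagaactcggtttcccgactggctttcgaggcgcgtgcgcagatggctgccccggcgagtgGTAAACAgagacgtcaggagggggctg
Each promoter was searched on both strands for GTAAACA, the FOXO core, for TGATGNAA, the composite element that ATF4 binds, and for TGACNNNGC, the antioxidant response element of NRF2, and no match of 1 motif overlapped that of another. GTAAACA was found in 1 of the 11 promoters, that of FOXO4, and in 3.42% of all 35116 promoters. TGATGNAA was found in 0 of the 11 and in 3.62% of all promoters. TGACNNNGC was found in 2 of the 11, 1 of SESN1 and 1 of FOXO3, and in 13.3% of all promoters. The SESN3 promoter has a GC content of 45.0%, lower than any other of the 11, against a median of 58.7% over all promoters, and 20.6% of all promoters have less. These matches describe the letters of these windows only.

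As a check of the material, all 9 measured luminal breast markers (ESR1, GATA3, FOXA1, KRT8, KRT18, KRT19 and EPCAM among them) had a mean above 5.44, the median of all genes. All 6 measured markers of leukocytes, fibroblasts, endothelium and basal cells (LYZ, DCN, PECAM1, VWF, KRT5 and KRT14) lay below it. Among the others listed, PTPRC, CD3E, COL1A1, COL1A2, COL3A1, CDH5 and TP63 have no named probeset here. Array medians over all probesets ranged from 4.22 to 4.27. The probeset of MIR150 averaged a log2 intensity of 4.20 ± 0.26 in mimic, 4.09 ± 0.14 in negative control and 4.06 ± 0.37 in mock arrays (SD, n = 3 each), and the sources used here do not state whether it reads the transfected strand.

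The comparison of the mimic with the negative control RNA asks which transcripts differ when the RNA delivered at the same dose is miR-150-5p. Of the 6 genes 1 rose, SESN3, and 0 fell in limma's test with Benjamini-Hochberg adjustment over all 14884 genes. Of all genes 0.551% passed that test, 0.202% with a rise and 0.349% with a fall. SESN3 was also the only 1 of the 6 whose mimic and negative control arrays did not overlap, which held for 16.4% of all genes. The median log2 change of the 6 was -0.03, against 0.01 over all genes.

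SESN3 stood apart from the controls on each mimic array. Its log2 intensity was 6.08, 6.13 and 6.12 on the mimic arrays, against 5.25, 4.93 and 5.30 on the negative control arrays and 5.41, 5.21 and 5.19 on the mock arrays. The lowest mimic array was thus above the highest of the 6 control arrays, and the 2 control groups overlapped. The mimic arrays lay close together (6.11 ± 0.02, SD, n = 3), and the negative control arrays were spread more widely (5.16 ± 0.20), with replicate 2 the lowest. The change was 0.95 ± 0.10 (SE) on the log2 scale, or 1.93-fold, with a 95% interval from 0.72 to 1.18 and an adjusted p = 0.0106 in limma's test. Its mean over the 9 arrays, 5.51, lay close to the median of all genes. In a bulk sample, more cells with the transcript and more transcript per cell cannot be told apart.

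**Figure D1:**
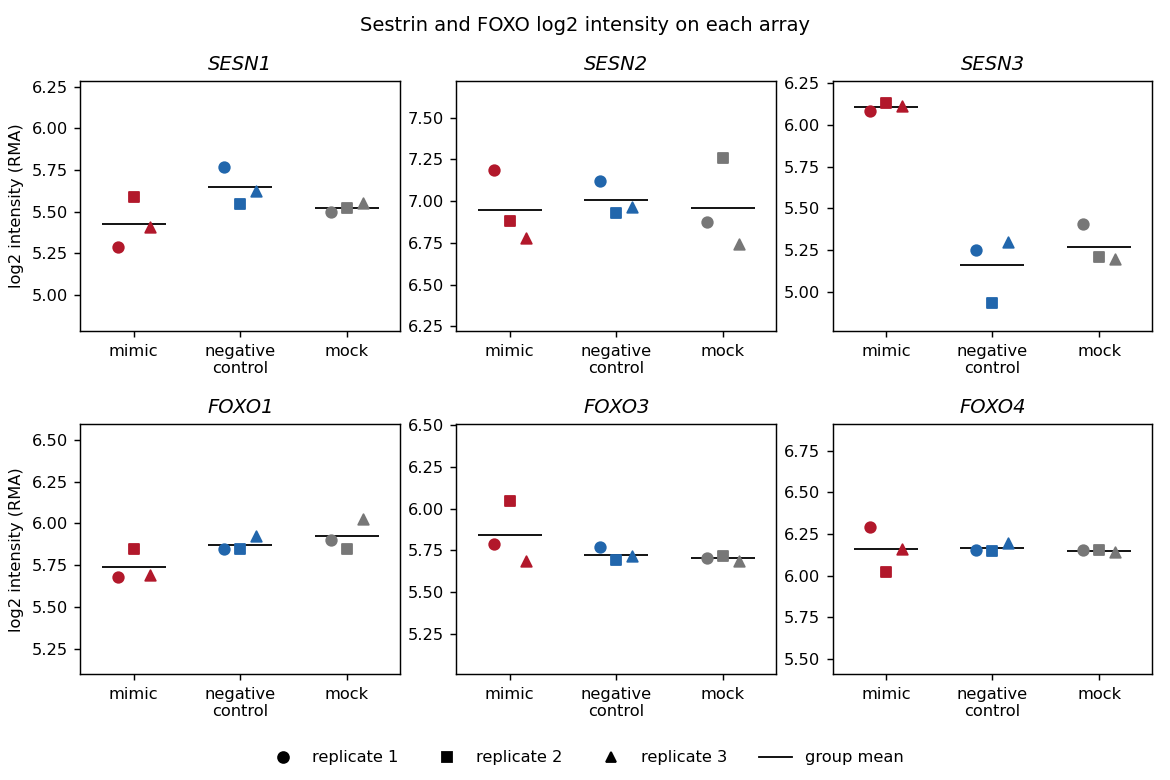
Log2 intensity (vertical axes, each spanning 1.5 log2 units) of the 6 genes on each of the 9 arrays, by group, with group means as lines and replicates by symbol. The 3 mimic arrays of SESN3 lie between 6.08 and 6.13, above all 6 control arrays, while mimic and control arrays overlap for the other 5 genes.

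SESN1, first described as a p53-activated gene, did not pass. It measured 5.29, 5.59 and 5.41 on the mimic arrays, against 5.77, 5.55 and 5.62 on the negative control arrays and 5.50, 5.52 and 5.55 on the mock arrays. Mimic replicate 2 lay above negative control replicate 2 and above all 3 mock arrays, so both comparisons overlapped. The log2 difference from the negative control was -0.22 ± 0.09 (SE, n = 3 per group; 95% interval -0.42 to -0.01; unadjusted p = 0.0395, adjusted p = 0.371 by limma), and it was -0.12 with array weights. An unadjusted p under 0.05 was reached by 12.6% of all genes in this comparison.

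SESN2, a leucine-binding sestrin, gave 7.19, 6.88 and 6.78 on the mimic arrays, against 7.12, 6.93 and 6.97 on the negative control arrays and 6.87, 7.26 and 6.74 on the mock arrays. The 3 groups overlapped, with the negative control arrays closest together. The difference from the negative control was -0.06 ± 0.15 on the log2 scale (limma, 95% interval -0.38 to 0.27, adjusted p = 0.904). The interval of SESN2 and that of SESN1 both ended below 0.72, the lower bound of the interval of SESN3. That is a description only, since the set was put together knowing that SESN3 differs.

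FOXO1, a factor that in liver and muscle switches on gluconeogenic and atrophy genes, measured 5.68, 5.85 and 5.69 on the mimic arrays, against 5.85, 5.85 and 5.93 on the negative control arrays and 5.90, 5.85 and 6.03 on the mock arrays. Mimic replicates 1 and 3 lay below all 6 control arrays, while mimic replicate 2 had exactly the value 5.84515 that negative control replicates 1 and 2 and mock replicate 2 also have. The log2 difference from the negative control was -0.13 ± 0.08 (limma, 95% interval -0.31 to 0.04, adjusted p = 0.518). Such repeats are common in the deposited table: 4 or more arrays share 1 value in 16.3% of genes, and 2 or more in 57.1%. Within a group they can narrow the spread that a test sees, and their effect was not tested.

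FOXO3, a factor that promotes apoptosis and autophagy genes, gave 5.79, 6.05 and 5.68 on the mimic arrays, against 5.77, 5.69 and 5.71 on the negative control arrays and 5.70, 5.71 and 5.69 on the mock arrays. Mimic replicate 2 was the highest of the 9 and mimic replicate 3 the lowest. The log2 difference from the negative control was 0.12 ± 0.09 (limma, 95% interval -0.09 to 0.32, adjusted p = 0.647). It was 0.01 without mimic replicate 2, 0.19 without mimic replicate 3 and 0.22 with array weights. The dimmer FOXO3 probeset measured 4.73, 4.71 and 4.50 on the mimic arrays, against 4.59, 4.59 and 4.53 on the negative control arrays and 4.75, 4.54 and 4.02 on the mock arrays, again with overlap. Its difference from the negative control was 0.07 ± 0.17 on the log2 scale in a fit over all probesets. The RefSeq table also lists FOXO3B, a close relative of FOXO3 on chromosome 17, and the sources used here do not state which transcripts each probeset reads.

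FOXO4, which has been reported as a miR-150 target in lung cancer cells, measured 6.29, 6.02 and 6.16 on the mimic arrays, against 6.15, 6.15 and 6.19 on the negative control arrays and 6.15, 6.15 and 6.14 on the mock arrays. Its mimic arrays lay on either side of the controls. The log2 difference from the negative control was -0.01 ± 0.08 (limma, 95% interval -0.18 to 0.17, adjusted p = 0.985), and its sign changed in 4 of the 18 alternatives. The SD within the mimic group, 0.14, was larger than that of the negative control, 0.03, or of mock, 0.01. Likewise the SD of FOXO3 was 0.19 in mimic, 0.04 in negative control and 0.01 in mock arrays, as a description of 3 arrays each.

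The comparison with mock uses the same 3 mimic arrays and the other control, lipid without RNA. Again SESN3 was the only 1 of the 6 that rose and 0 fell, where 0.302% of all genes passed, 0.168% rose and 0.134% fell. It was also the only 1 of the 6 without overlap, against 12.7% of all genes. SESN3 was higher in the mimic arrays by 0.84 ± 0.10 on the log2 scale (1.79-fold, 95% interval 0.61 to 1.07, adjusted p = 0.0224 by limma). This call was lost with the replicate number as a block (adjusted p = 0.0526) and in 11 of 18 alternatives, the block among them. The log2 differences of the others were -0.10 ± 0.09 for SESN1, -0.01 ± 0.15 for SESN2, -0.19 ± 0.08 for FOXO1, 0.14 ± 0.09 for FOXO3 and 0.01 ± 0.08 for FOXO4. That of FOXO3 was 0.04 without mimic replicate 2, and that of FOXO1 was -0.12 with array weights. FOXO1 had an unadjusted p = 0.0387 and an adjusted p = 0.442 in limma's test, where 10.7% of all genes had an unadjusted p under 0.05.

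**Figure D2:**
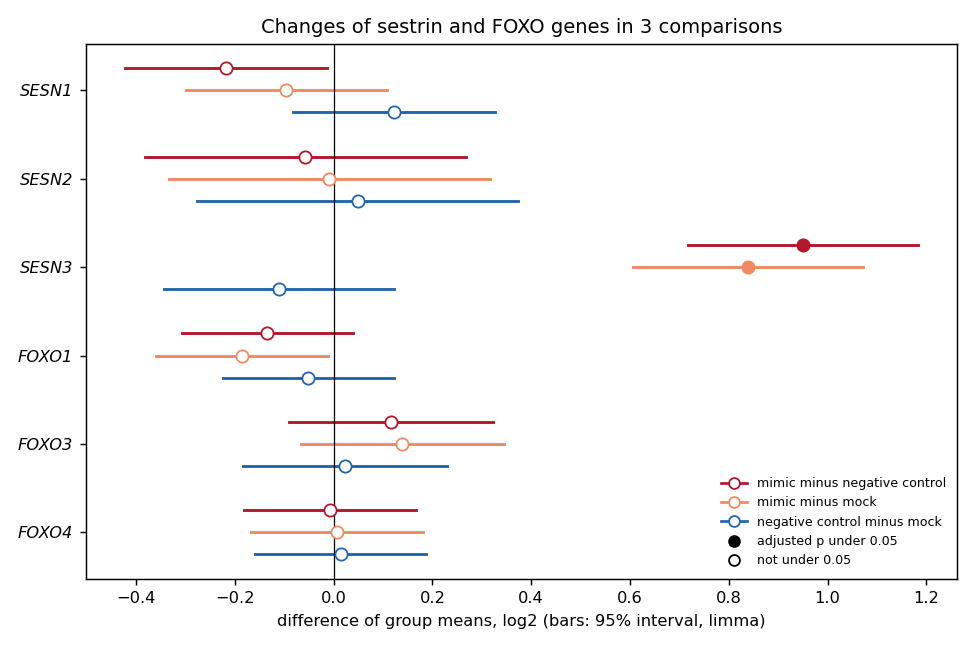
Differences of group means on the log2 scale (horizontal axis) for each gene in the 3 comparisons, with 95% intervals from limma. The filled points, adjusted p under 0.05, are those of SESN3 in mimic minus negative control (0.95) and mimic minus mock (0.84).

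The negative control RNA against mock gives the background of delivering an RNA. None of the 6 genes passed limma's test or had an unadjusted p under 0.05, which 4.18% of all genes had, and 0% of all genes passed. SESN3 differed by -0.11 ± 0.10 on the log2 scale (95% interval -0.34 to 0.12, adjusted p = 0.976 by limma), and SESN1 by 0.12 ± 0.09. The other 4 lay between -0.05 (FOXO1) and 0.05 (SESN2). Of the 6, 4 had a positive difference, beside 52.8% of all genes, and 2 a negative one, beside 47.1%. Of the 6, 0 had groups without overlap, against 8.1% of all genes.

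The size of the SESN3 difference changed little with the processing, while its adjusted p crossed the threshold in several settings. Against the negative control it ranged from 0.84 to 1.02 on the log2 scale over 18 alternatives and passed in 15. It missed the threshold when mimic replicate 1 was left out (adjusted p = 0.0585), in a fit on the 6 arrays of the 2 groups alone (0.0569), or when all 53617 probesets were tested (0.0632). Against mock it ranged from 0.80 to 0.91 and passed in 7 of 18. Among the fits that left out 1 array it passed there only without negative control replicate 2 (adjusted p = 0.0253), and the other 8 gave adjusted p-values from 0.0502 to 0.103. The passes in both comparisons include the fit limited to genes with a mean above 5.44, the median of all genes. SESN3 met that filter only through its mimic arrays: its mean was 5.51 over 9 arrays, 5.16 in negative control and 5.27 in mock. That pass is no added support. None of the other 5 genes passed in any of the 18 alternatives of any comparison. Mimic replicate 1, whose loss ends the call against the negative control, had a SESN3 level close to the other 2, at 6.08 beside 6.13 and 6.12.

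**Figure D3:**
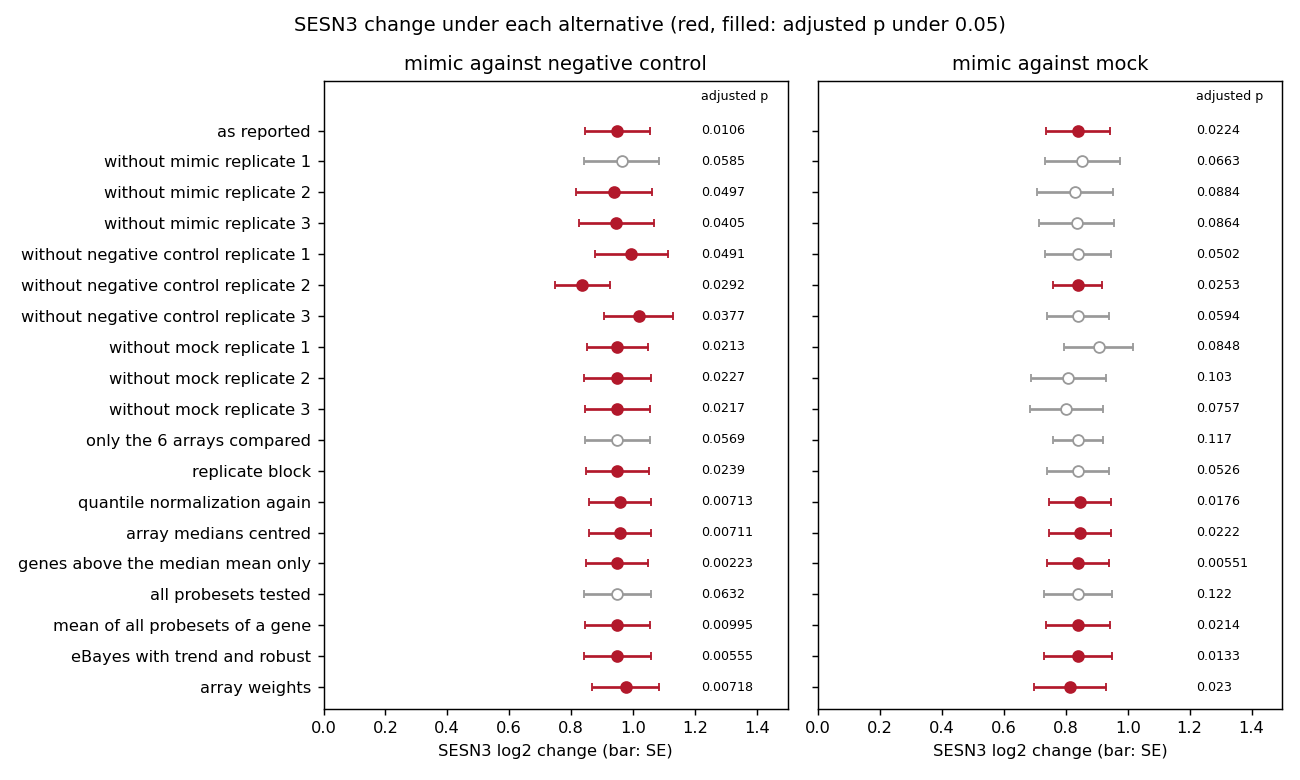
SESN3 log2 change (horizontal axes, from 0; bars are SE) in the reported fit and under each of 18 alternatives, with adjusted p beside each point and filled red points where it was under 0.05. The changes lie between 0.84 and 1.02 against the negative control and between 0.80 and 0.91 against mock.

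FOXO factors act through a wide set of genes, of which 29 of 42 listed were measured. None passed limma's test in either mimic comparison, where 0.551% and 0.302% of all genes did. An unadjusted p under 0.05 was found for 5 of the 29 against the negative control, beside 12.6% of all genes, and for 6 against mock, beside 10.7%. Their median log2 change was 0.04 against the negative control and 0.05 against mock, beside 0.01 and 0.01 over all genes, and 21 of 29 were positive in each, beside 53.4% and 53.8% of all genes. CDKN1A, CDKN1B, GADD45A, TNFSF10, SOD2 and PDK4, all well known FOXO targets, have no named probeset here, so the list lacks several of its defining members. BCL6, a transcriptional repressor, had the lowest p against the negative control. It measured 8.76, 8.00 and 8.12 on the mimic arrays, against 7.81, 7.63 and 7.81 on the negative control arrays and 7.72, 7.77 and 7.69 on the mock arrays. All 3 mimic arrays were above the controls, replicate 1 most, and the log2 difference from the negative control was 0.54 ± 0.17 (adjusted p = 0.222 by limma). Without mimic replicate 1 the difference of BCL6 was 0.31. Against mock the lowest p was that of IGF1R, which is also on this list and is described with the PI3K-AKT genes. KLF2 and TRIB1, chosen after their values were seen, did not pass: KLF2 differed by -0.28 from the negative control and by -0.27 from mock, and TRIB1 by -0.29 and by -0.30.

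The PI3K-AKT enzymes and adaptors that lead to FOXO phosphorylation had 11 of 21 members measured, without a named probeset for the PI3K subunits. None passed, where 0.551% of all genes did against the negative control and 0.302% against mock. The median log2 change was 0.12 against the negative control and 0.15 against mock, beside 0.01 and 0.01 over all genes. Of the 11, 10 were positive against the negative control and 9 against mock, beside 53.4% and 53.8% of all genes. IRS2, an insulin receptor substrate that is itself a FOXO target, measured 5.31, 5.31 and 5.87 on the mimic arrays, against 5.21, 5.08 and 4.95 on the negative control arrays and 5.20, 5.23 and 5.26 on the mock arrays. Its log2 difference from the negative control was 0.42 ± 0.14 (adjusted p = 0.268 by limma), with mimic replicate 3 the highest, and 0.23 without that array. IGF1R, the receptor of insulin-like growth factors, chosen after its values were seen, differed by 0.24 from the negative control and by 0.39 from mock (unadjusted p = 0.0187 and 0.00125). Of the 12 measured partners and modifiers of FOXO, 6 were positive and 6 negative against the negative control, 0 passed, and SIRT2, a deacetylase, had the lowest p (-0.21 ± 0.08, adjusted p = 0.356 by limma). Without mimic replicate 2 the difference of SIRT2 was -0.13.

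The complexes through which sestrins act showed no measured member that passed, where 0.551% of all genes did against the negative control and 0.302% against mock. A count of 0 in lists this short is near those shares. Of 10 measured genes of GATOR and KICSTOR the median log2 change was 0.00 against the negative control and 0.08 against mock, beside 0.01 and 0.01 over all genes. CASTOR1, the arginine sensor that also binds GATOR2, had the lowest p against the negative control. It gave 7.96, 7.68 and 7.74 on the mimic arrays, against 8.06, 7.96 and 8.06 on the negative control arrays and 7.99, 8.12 and 7.96 on the mock arrays. Mimic replicate 1 had the same value as negative control replicate 2 and mock replicate 3, and the log2 difference from the negative control was -0.23 ± 0.09 (adjusted p = 0.322 by limma). Against mock the lowest p was that of WDR59, which went the other way (0.27 ± 0.08, adjusted p = 0.258 by limma). Of 16 genes of mTORC1 and its Rag GTPases the median was 0.05 in both comparisons. MAPKAP1, which encodes an mTORC2 subunit, differed from the negative control by 0.41 ± 0.10 (adjusted p = 0.116 by limma) and passed in 2 of 18 alternatives, while its difference from mock was 0.23 ± 0.10, and 0.15 without mock replicate 3. Of the 11 genes listed for AMPK and its upstream kinases 3 were measured, STK11, CAB39 and STRADA. These 3 encode an upstream kinase complex of AMPK, and no AMPK subunit has a named probeset here. CAB39 had the lowest p against the negative control (0.17 ± 0.07, adjusted p = 0.395 by limma). STRADA went the other way (-0.19 ± 0.08, adjusted p = 0.396 by limma), and STK11 differed by 0.04. Without mimic replicate 3 the difference of CAB39 was 0.10.

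**Figure D4:**
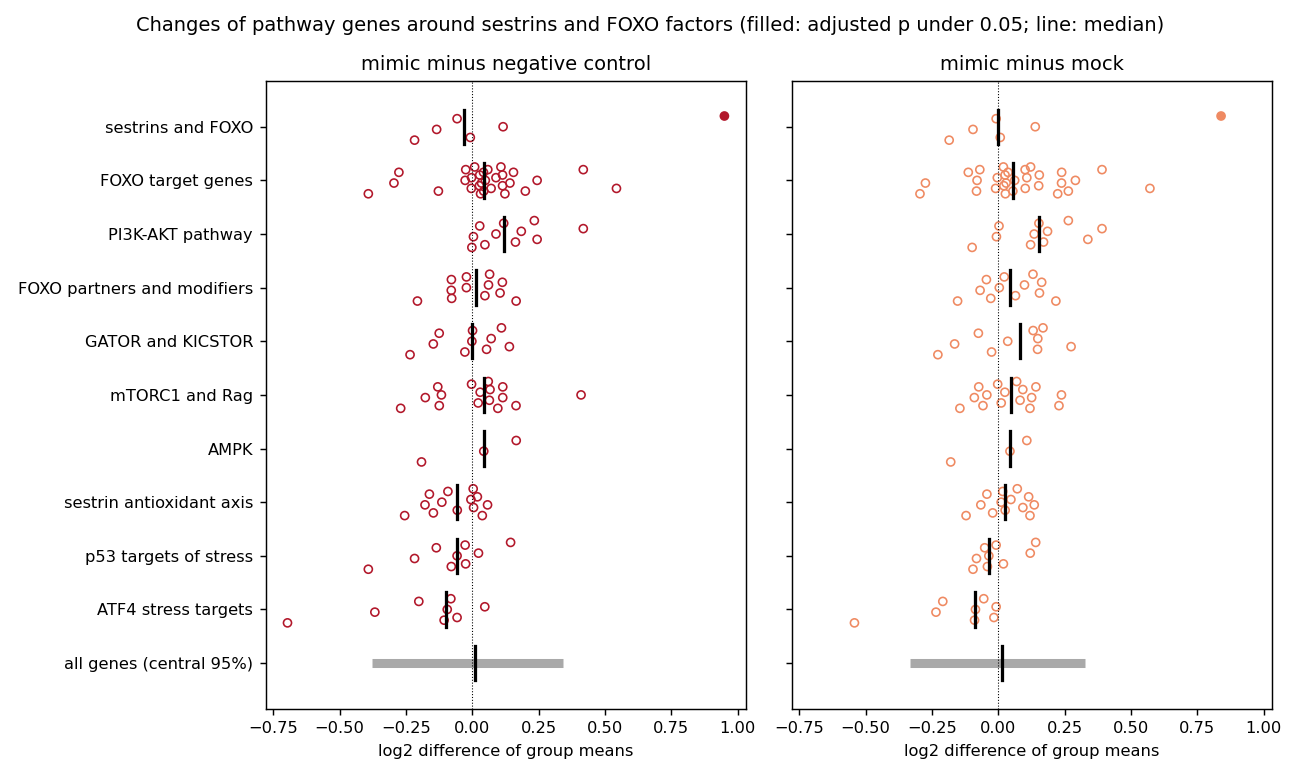
Log2 differences of group means (horizontal axes) for each measured gene of the lists, mimic minus negative control on the left and mimic minus mock on the right. Filled points passed limma's test, short lines are list medians, and the grey bar is the central 95% of all genes. The only filled points are SESN3, at 0.95 and 0.84.

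Among the listed targets of the stress programmes known to induce SESN1 and SESN2, no measured one passed. The lists hold only part of those programmes. PSAT1 and AARS1, which passed and are given further below, are not in them. Of 9 measured p53 targets, SESN1 and SESN2 among them, 0 passed and 7 were negative against the negative control, with a median log2 change of -0.06, and 6 were negative against mock, with a median of -0.04. Of all genes 46.6% were negative against the negative control and 46.2% against mock, and 0.551% and 0.302% passed. Of 8 measured genes of the ATF4 list, SESN2 and ATF4 itself among them, 0 passed. Against the negative control 7 were negative (median -0.10), and against mock 8 were (median -0.09). The positive one against the negative control was ATF4 (0.05), the factor and not a target. ASNS, asparagine synthetase, had the lowest p: it measured 5.71, 5.87 and 6.29 on the mimic arrays, against 6.44, 7.06 and 6.46 on the negative control arrays and 6.59, 6.44 and 6.47 on the mock arrays. All 3 mimic arrays were below all controls, and the log2 difference from the negative control was -0.70 ± 0.18 (adjusted p = 0.154 by limma). Of 13 genes of the sestrin-linked antioxidant axis 0 passed, with a median of -0.06 against the negative control and 0.03 against mock. HMOX1, heme oxygenase, had the lowest p there against the negative control (-0.25 ± 0.09, adjusted p = 0.287 by limma). Its log2 difference from mock was -0.07, and that of negative control from mock was 0.19. SRXN1, sulfiredoxin, followed in size against the negative control at -0.18 and was chosen after its values were seen.

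The genes whose pattern over the 9 arrays was most like that of SESN3 were TINF2, INSIG1, FBXO33, KITLG and RALGPS2. They had the highest Pearson correlations from 0.952 to 0.979, among 7066 genes with a mean above the median of all genes and without a small RNA, antisense or LOC name. Since all 9 arrays enter, the correlation mostly reflects the contrast of 3 mimic with 6 control arrays. TINF2, a telomere-associated protein, measured 7.64, 7.61 and 7.58 on the mimic arrays, against 7.38, 7.36 and 7.42 on the negative control arrays and 7.45, 7.41 and 7.40 on the mock arrays. Its log2 difference from the negative control was 0.22, smaller than that of SESN3, and did not pass (adjusted p = 0.170 by limma). INSIG1, which holds back sterol synthesis, gave 9.26, 9.12 and 9.19 on the mimic arrays, against 8.55, 8.30 and 8.59 on the negative control arrays and 8.53, 8.63 and 8.66 on the mock arrays, with negative control replicate 2 the lowest, as for SESN3. FBXO33, an F-box protein, and RALGPS2 passed against the negative control (0.46 and 0.54), while KITLG, the ligand of the KIT receptor, did not (0.31, adjusted p = 0.0681 by limma). Among the 6 genes themselves, the correlation of SESN3 over the 9 arrays was -0.67 with FOXO1, -0.54 with SESN1, 0.56 with FOXO3, -0.10 with SESN2 and 0.00 with FOXO4, as a description.

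**Figure D5:**
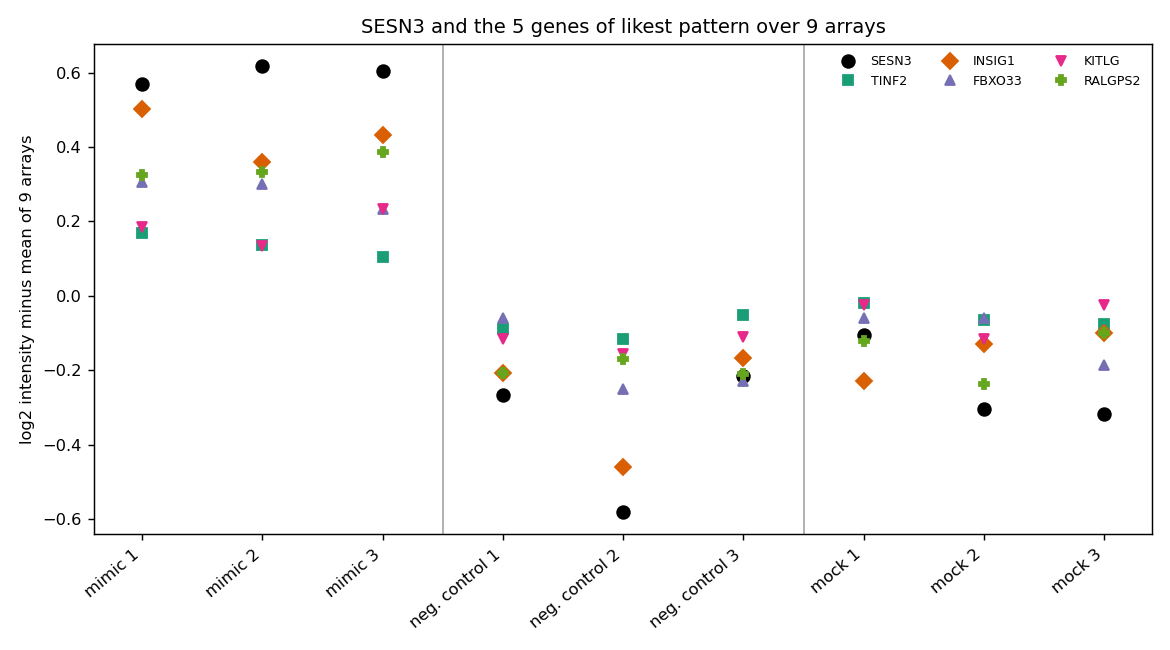
Log2 intensity minus the mean of the 9 arrays (vertical axis) of SESN3 and the 5 genes of likest pattern on each array. All 6 genes lie above their own mean on the 3 mimic arrays and below it on the 6 control arrays, with SESN3 the most extreme on the mimic arrays.

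The mean log2 level of the 9 luminal markers was also higher on the mimic arrays (9.91 to 10.0) than on the negative control (9.73 to 9.81) and mock arrays (9.76 to 9.87), where PGR and ESR1 passed in both mimic comparisons. The other 7 did not pass. Against the negative control, TFF1 differed by 0.38, FOXA1 by 0.16 and GATA3 by 0.13 on the log2 scale, while EPCAM (0.01), KRT8 (-0.00077), KRT18 (-0.03) and KRT19 (-0.09) lay near 0 or below. Of the 9, 3 were negative in each mimic comparison, and against mock these were KRT18, KRT19 and EPCAM. The 6 markers of other cell types averaged 3.19 to 3.28 on mimic, 3.14 to 3.18 on negative control and 3.07 to 3.23 on mock arrays, and 0 of them passed. The part of either in the SESN3 difference was not tested.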

How the data were processed

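Total RNA of 9 cultures was labelled with biotin and measured on Affymetrix Human Gene 2.0 ST arrays. The deposited table holds log2 values for 53617 probesets that the authors made with RMA, per the submitters' processing notes; the sources used here give neither its version nor a genome build. It has no detection calls, and precision is limited by the number of arrays. The platform's annotation table names 16098 probesets with 1 gene and 37519 are unnamed here; all matched GRCh38.p14 RefSeq gene IDs. Per gene the probeset with the highest mean was kept, giving 14884 genes. The values were fitted with limma 3.58.1 in R 4.3.3, 1 mean per group over 9 arrays (6 residual degrees of freedom), two-sided, with Benjamini-Hochberg adjustment over all genes called at 0.05; with 3 arrays against 3, exact permutation cannot go below p = 0.1. The fit was tested on simulated data.

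The members, the lists and the rule for named genes were chosen with earlier results of these data known. All 6 members are described; of each list the passing members, or else the member with the lowest p against the negative control, are named, and the 5 genes most correlated with SESN3. Alternatives left out each array, added the replicate number as a block, fitted 2 groups alone, renormalized or centred the arrays, filtered dim genes, tested all probesets, averaged the probesets of a gene, used a trended robust prior, or weighted the arrays.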

Additional observations from a re-analysis of the deposited data

How the results depend on the processing

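SESN3 alone decides the count of the 6 genes that passed. That count was 1 in the reported fits of both mimic comparisons and 0 when all probesets were tested or only the 6 arrays compared were fitted; leaving out 1 array gave 0 to 1 in each. With a replicate block, 1 gene passed against the negative control and 0 against mock, where SESN3 had an adjusted p = 0.0526. Whether the replicate numbers pair the samples was not settled. Correlations of deviations from the group mean ranged from -0.11 to 0.18 for same-numbered arrays and from -0.29 to 0.28 for differently numbered ones. For mimic against negative control they were 0.06 to 0.17 and -0.15 to 0.06. Over all genes, 82 passed against the negative control and 45 against mock; the counts were 16 and 3 with the replicate block, 8 and 1 on 6 arrays alone, 6 and 3 over all probesets, 263 and 102 for genes above the median only, 268 and 57 with array weights, and 169 and 66 with a trended robust prior. Leaving out 1 array gave 7 to 121 and 1 to 10. Negative control against mock gave 0 genes in limma's fit and in all 18 alternatives, with 622 genes at an unadjusted p under 0.05.

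Changes near 0 turned sign. Leaving out 1 array gave log2 changes for SESN2 from -0.18 to 0.028 against the negative control, from -0.13 to 0.14 against mock and from -0.059 to 0.20 for negative control against mock, and for FOXO4 from -0.076 to 0.061, from -0.061 to 0.075 and from -0.00023 to 0.023. For negative control against mock it gave -0.18 to 0.0026 for SESN3 and -0.00038 to 0.040 for FOXO3. FOXO4 against the negative control was 0.015 after quantile normalization and 0.00095 with centred arrays; it was -0.055 against mock with array weights, and -0.014 for negative control against mock after quantile normalization. The cause was not tested. MAPKAP1 passed against the negative control in 2 of 18 alternatives. Without detection calls, a low probeset such as the dimmer one of FOXO3 cannot be told from background.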

Other observations

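The genes that ran most opposite to SESN3 over the 9 arrays, chosen after their values were seen, were PSAT1, FLYWCH2, AARS1, PEG10 and YARS1, with Pearson correlations from -0.983 to -0.961 over the same 7066 genes. PSAT1 makes serine precursors, and AARS1 and YARS1 charge transfer RNAs with alanine and tyrosine. AARS1 measured 10.2, 10.3 and 10.2 on the mimic arrays, against 10.9, 10.9 and 10.8 on the negative control arrays and 10.8, 10.9 and 10.8 on the mock arrays. Its log2 difference was -0.62 against the negative control and -0.61 against mock, and it passed limma's test in both, as did PSAT1 (-0.84 and -0.66). FLYWCH2 and PEG10 passed against the negative control (-0.39 and -0.48), and YARS1 did not pass (-0.46, adjusted p = 0.0594 by limma).

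Of the 13 genes of the sestrin-linked antioxidant axis, all 13 had a positive log2 difference between negative control and mock, from 0.03 to 0.19, beside 52.8% of all genes, and 0 passed. This count was chosen after the values were seen. The mean log2 level of the list overlapped between the groups, at 8.46 to 8.51 on negative control and 8.31 to 8.47 on mock arrays.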
